A study of Mus musculus with 30 samples.

Results

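A mouse chemically induced pluripotent stem cell (CiPSC) line was compared with mouse embryonic fibroblasts (MEFs), the cells from which chemical reprogramming started, gene by gene in bulk RNA-seq. All entries of the expression table at 1 FPKM or more in either of the 2 libraries were taken, which gave 13852 of 35275 entries, and each was described by its difference in log2(FPKM + 1), CiPSC minus MEF. FPKM is a fragment count scaled by transcript length and library depth, so levels of different genes are compared per length. The 2 libraries belong to a series of 30 samples, of which 14 are bulk RNA-seq libraries that follow small-molecule reprogramming through XEN-like cells and later treatment stages.

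The CiPSC library came from line #1, kept on mitomycin C-treated MEF feeders in KnockOut DMEM with 10% FBS and 10% KSR. That medium also held LIF at 10 ng/ml, the MEK inhibitor PD0325901 at 1 µM and the GSK3 inhibitor CHIR99021 at 3 µM. The MEF library came from embryos at E13.5, grown in high-glucose DMEM with 15% FBS and without those agents. Both carry the label of a C57BL/6J transgenic line with the GOFGFP reporter crossed to ICR, spelled C57BL/6J-Tg(GOFGFP)11Imeg/_brcxICR for the CiPSCs and C57BL/6J-Tg(GOFGFP)11Imeg/RbrcxICR for the MEFs. An embryonic stem cell (ESC) line from E3.5 ICR x ICR embryos in the CiPSC medium is quoted beside them for orientation. The labels do not tie the line to the embryos of the MEF library. Each group was 1 library of 1 line or culture, so no difference has a replicate check and none was tested. Cell state, culture medium, feeders and the single line cannot be told apart.

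Mouse pluripotent cells hold their state with a network of transcription factors around Pou5f1, Sox2 and Nanog, which is switched off in somatic cells. Embryonic fibroblasts are mesenchymal cells: they secrete collagen-rich matrix, build contractile actin bundles and carry the positional Hox code of their body region. Reprogramming to pluripotency includes a change from this mesenchymal form to an epithelial one, and a faster cell cycle.

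The CiPSC library held 11494763 reads assigned to genes and the MEF library 9774904, within the range of 6601290 to 15294927 over the 14 bulk libraries. These whole reads were recovered from the FPKM values, and the 95% intervals given with fold differences are exact binomial intervals of the read ratio, which cover counting error only. A fold against 0 reads is given as a lower bound from a floor of 3 reads in that library. The 12 pluripotent markers summed to 6912 FPKM in CiPSCs, 6832.5 FPKM in ESCs and 0.905 FPKM in MEFs, and 8 of the 12 were at 0 in MEFs. The 14 fibroblast markers summed to 7.96 FPKM in CiPSCs, 9.94 FPKM in ESCs and 19918 FPKM in MEFs. The CiPSC sum was 0.0400% of the MEF sum, and Dcn, Lum and Twist2 were at 0 in CiPSCs.

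The promoters of 4 members are shown as examples, 250 bases before to 50 bases after the annotated start, from RefSeq (GRCm38.p6), 5′ to 3′ on the gene's strand. Zfp42 (chr8:43306960-43307259, minus strand), which encodes the pluripotency marker Rex1, is among the largest rises. Col3a1 (chr1:45311288-45311587, plus strand), a fibrillar collagen chain, is among the largest falls. Myl9 (chr2:156775214-156775513, plus strand), a smooth-muscle-type myosin light chain, and Srf (chr17:46556113-46556412, minus strand), the serum response factor, belong to the contractile list. Capitals mark every match, on either strand, to ATGCAAAT, the octamer bound by POU factors, to the TATA-type hexamer TATAAA, and to the CArG box, the element bound by serum response factor.
Zfp42: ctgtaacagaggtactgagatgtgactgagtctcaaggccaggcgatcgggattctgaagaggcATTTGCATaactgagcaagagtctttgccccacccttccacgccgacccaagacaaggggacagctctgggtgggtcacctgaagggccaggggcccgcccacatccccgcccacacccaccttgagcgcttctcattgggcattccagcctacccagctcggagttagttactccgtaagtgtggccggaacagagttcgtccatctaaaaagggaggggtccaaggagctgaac
Col3a1: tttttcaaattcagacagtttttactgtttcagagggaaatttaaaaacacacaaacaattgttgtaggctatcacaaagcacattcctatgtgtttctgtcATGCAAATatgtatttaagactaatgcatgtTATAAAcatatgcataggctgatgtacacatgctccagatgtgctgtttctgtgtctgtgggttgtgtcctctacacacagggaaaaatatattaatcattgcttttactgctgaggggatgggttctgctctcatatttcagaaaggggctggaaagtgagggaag
Myl9: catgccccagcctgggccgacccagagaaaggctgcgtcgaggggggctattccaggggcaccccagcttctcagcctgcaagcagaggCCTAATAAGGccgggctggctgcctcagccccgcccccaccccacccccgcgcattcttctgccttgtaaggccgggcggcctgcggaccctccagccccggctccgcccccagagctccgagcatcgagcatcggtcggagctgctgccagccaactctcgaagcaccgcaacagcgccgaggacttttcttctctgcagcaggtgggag
Srf: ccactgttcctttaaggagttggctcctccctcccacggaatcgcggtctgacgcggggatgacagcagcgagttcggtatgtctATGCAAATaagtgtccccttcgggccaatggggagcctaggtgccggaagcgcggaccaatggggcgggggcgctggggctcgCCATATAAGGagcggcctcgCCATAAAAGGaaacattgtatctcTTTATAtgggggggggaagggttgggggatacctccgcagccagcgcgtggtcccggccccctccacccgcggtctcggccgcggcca
The Zfp42 window held the octamer as ATTTGCAT, 186 bases before the start, and 11 CpG. The Col3a1 window held ATGCAAAT 148 bases and TATAAA 117 bases before the start, and no CpG. A CArG box lay 161 bases before the Myl9 start, and a pair lay 82 and 62 bases before the Srf start. The Srf window also held ATGCAAAT 165 bases and TTTATA, the hexamer on the other strand, 38 bases before the start. These are matches of letters and say nothing of binding in either cell type. Nor are they typical of their lists. The octamer was in 1 of 16 windows of core and naive pluripotency factors, and a CArG box in 4 of 24 contractile windows.

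Of the 13852 genes, 3574 were at least 2-fold higher and 3510 at least 2-fold lower in CiPSCs than in MEFs on the log2(FPKM + 1) scale, which is 25.8% and 25.3%. The other 6768 genes (48.9%) lay less than 2-fold apart, and the median difference was 0.05. At 4-fold the counts were 1148 higher (8.29%) and 1610 lower (11.6%), and at 16-fold they were 207 higher and 406 lower. The split depends on scaling: the FPKM values sum to 794296 in CiPSCs and 635828 in MEFs, and setting both libraries to the same total without mitochondrially encoded genes moved the median by -0.31 and gave 3018 higher and 4696 lower. Levels of 1 FPKM or more were reached in both libraries by 10344 genes, in CiPSCs alone by 1702 and in MEFs alone by 1806. Of the genes at 10 FPKM or more in CiPSCs, 131 had 0 reads in MEFs. Of the genes at 10 FPKM or more in MEFs, 83 had 0 reads in CiPSCs. At the edge of the rule, 186 genes had a higher value between 1 and 1.1 FPKM and were counted, and 242 entries between 0.9 and 1 FPKM were not.

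**Figure D1:**
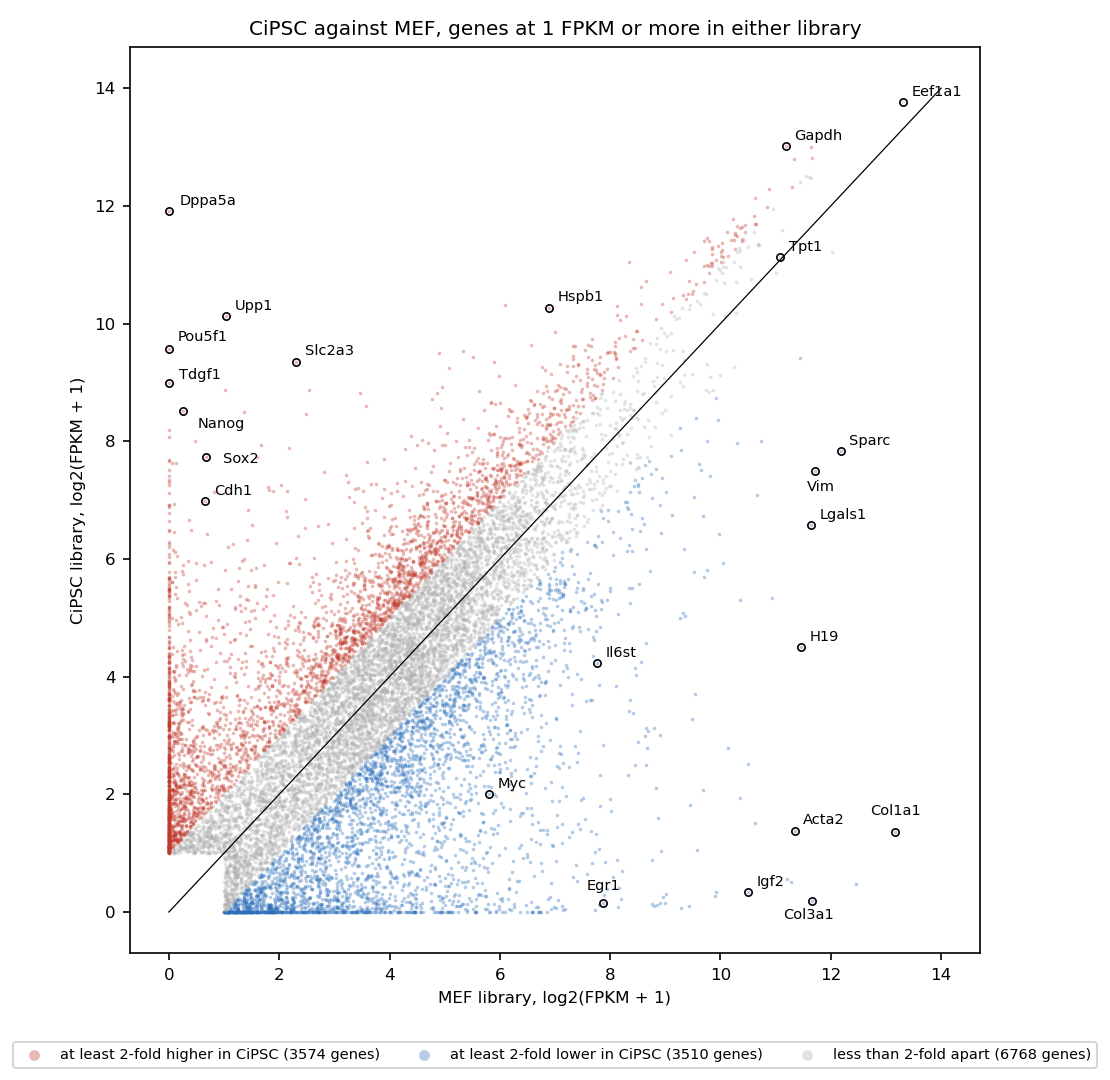
Level of each of the 13852 genes in the CiPSC library (y axis) against the MEF library (x axis), both in log2(FPKM + 1), 1 library each. Red points are the 3574 genes at least 2-fold higher in CiPSCs, blue points the 3510 at least 2-fold lower and grey points the 6768 between. The diagonal line marks equal levels, and the labelled genes are described in the text.

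The transcription factors of the pluripotency network separated the libraries almost completely. Of 22 core and naive factors, 20 were at least 2-fold higher in CiPSCs and none was lower, with a median log2 difference of 4.22 (6.78 at a pseudocount of 0.1) against 0.05 over all 13852 genes. Counts in this and the following lists are read against the 25.8% higher and 25.3% lower of all genes. A gene at 0 FPKM in 1 library that reaches 1 FPKM in the other is called by construction. In the BAF, deacetylase, Trp53 and Myc lists, of 12 to 30 genes, the higher share lay near 25.8% and the lower share was under 25.3%. The lower share of the sterol and lysosomal lists and the higher share of the housekeeping list also lay near those of all genes. In the Wnt target, G1 regulator, FGF and stress lists the higher share lay near 25.8% as well, while the lower share was above 25.3%. Pou5f1, the POU factor that the network depends on, stood at 756 FPKM in CiPSCs and 0 FPKM in MEFs, at least 1824-fold higher. Nanog, a homeodomain factor of the same network, stood at 364 FPKM in CiPSCs and 0.197 FPKM in MEFs, where it had 4 reads, a ratio of 1844 (720.0 to 6770.3). Sox2, the partner of Pou5f1 on DNA, stood at 211 FPKM in CiPSCs and 0.597 FPKM in MEFs, 354-fold higher (203 to 686). The 3 central factors were thus at or near 0 in fibroblasts and abundant in the line. Esrrb, an orphan nuclear receptor of naive cells, had 196 FPKM in CiPSCs and 0.0408 FPKM, a single read, in MEFs. Zfp42 had 269 FPKM in CiPSCs and 0 FPKM in MEFs (at least 1578-fold higher). Utf1, a chromatin-associated factor, had 289.6 FPKM in CiPSCs and 0 FPKM in MEFs (at least 1158-fold), while the ESC library had 131 FPKM. Sall4, a zinc-finger factor, had 109 FPKM in CiPSCs and 0 FPKM in MEFs.

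The 2 factors of this list that were not called were present in fibroblasts as well. Klf4, a Krüppel-like factor that also serves in differentiated epithelia and stroma, had 125 FPKM in CiPSCs and 70.2 FPKM in MEFs, a ratio of 1.77 (1.64 to 1.91). Zfp281 had 13.4 FPKM in CiPSCs and 14.8 FPKM in MEFs. Klf2 and Klf5, the other Krüppel-like factors listed, were both at least 2-fold higher: Klf2 had 184 FPKM in CiPSCs and 37.8 FPKM in MEFs, and Klf5 had 49.7 FPKM in CiPSCs and 8.14 FPKM in MEFs.

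**Figure D2:**
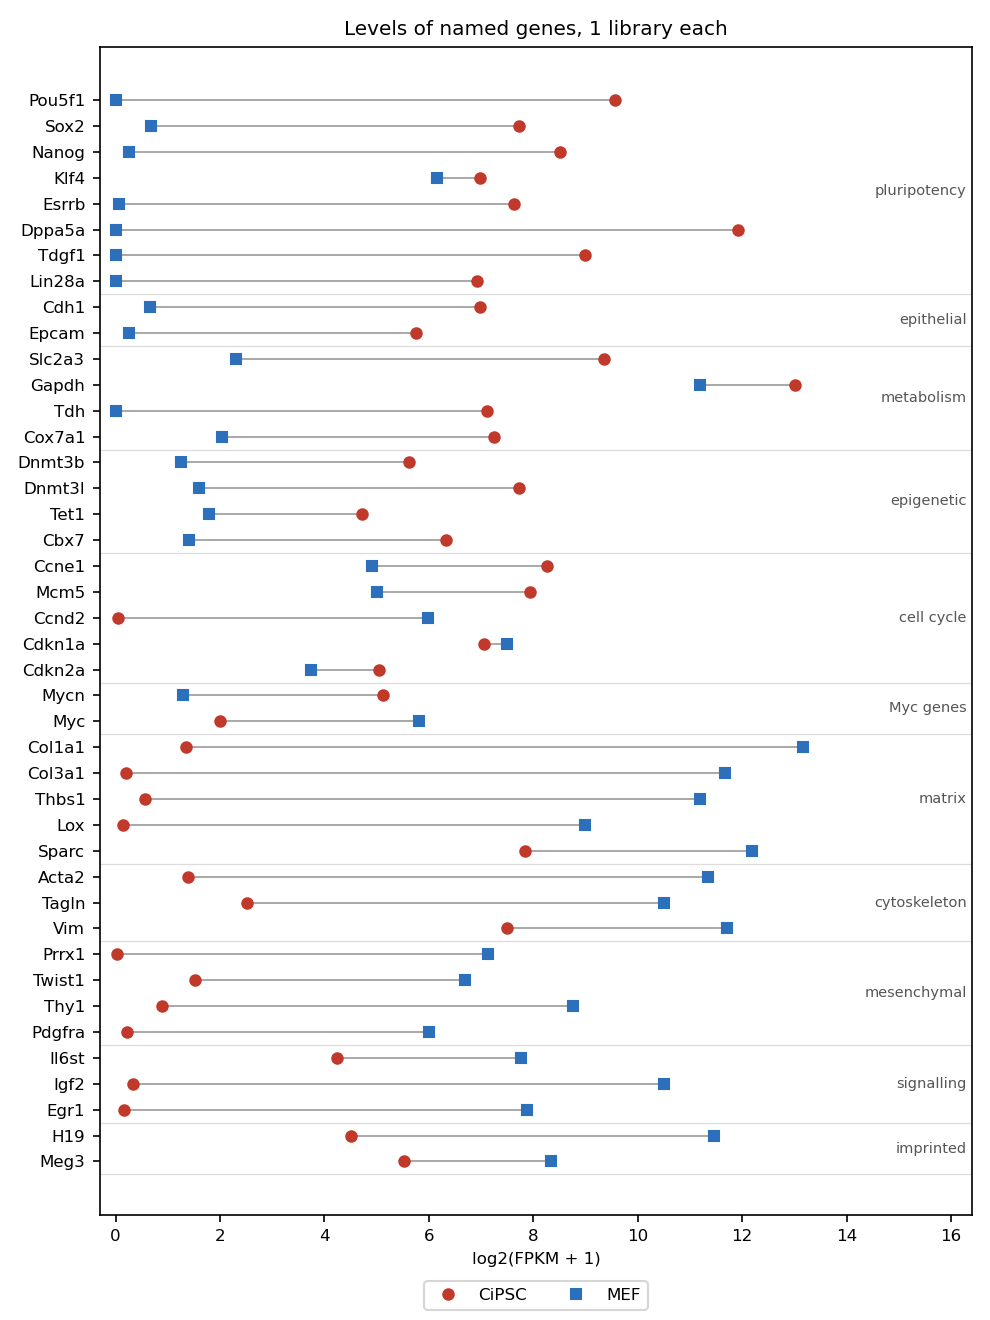
Levels of named genes in the CiPSC library (red circles) and the MEF library (blue squares), in log2(FPKM + 1) on the x axis, grouped by role down the page, 1 library each. Grey lines join both values of a gene. Pou5f1, Dppa5a, Tdgf1, Lin28a and Tdh are at 0 in MEFs, and the matrix, cytoskeletal and mesenchymal genes lie further left in CiPSCs than in MEFs.

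All 24 listed products of pluripotent cells were at least 2-fold higher in CiPSCs, with a median log2 difference of 5.46 (8.38 at a pseudocount of 0.1), or 5.18 with 0 reads set to the floor. The largest rise was that of Dppa5a, an RNA-binding protein of pluripotent cells, at 3863 FPKM in CiPSCs and 0 FPKM in MEFs (at least 7791-fold). Dppa5a has near-identical copies in the genome, so its own level is uncertain where reads were shared. Tdgf1, the Nodal co-receptor Cripto, had 509 FPKM in CiPSCs and 0 FPKM in MEFs (at least 3190.3-fold). The ligand Nodal had 34.8 FPKM in CiPSCs and 0 FPKM in MEFs, and its inhibitor Lefty2 had 48.8 FPKM in CiPSCs and 0 FPKM in MEFs. Fgf4, the growth factor that primes pluripotent cells for differentiation, had 67.0 FPKM in CiPSCs and 0 FPKM in MEFs (at least 661-fold). L1td1, derived from a LINE-1 open reading frame, had 201 FPKM in CiPSCs and 0 FPKM in MEFs, and Fbxo15, a Pou5f1 and Sox2 target, had 157 FPKM in CiPSCs and 0 FPKM in MEFs. Slc7a3, a cationic amino acid transporter, showed the smallest difference of the list at 46.6 FPKM in CiPSCs and 19.3 FPKM in MEFs.

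Several of the 20 largest rises lie outside the network. Upp1, uridine phosphorylase, had 1118 FPKM in CiPSCs and 1.05 FPKM in MEFs, 1064-fold higher (540.0 to 2466), with 619.9 FPKM in ESCs. Wfdc2, a secreted protease-inhibitor-like protein, had 256 FPKM in CiPSCs and 0.389 FPKM in MEFs. Aqp3, a water and glycerol channel, had 197 FPKM in CiPSCs and 0.0945 FPKM, 1 read, in MEFs. Calcoco2, an autophagy receptor, had 181 FPKM in CiPSCs and 0 FPKM in MEFs, and Trap1a had 169.9 FPKM in CiPSCs and 0 FPKM in MEFs. These rises were as complete as those of the network factors, in that the fibroblast library held between 0 and 8 reads of each.

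Formative and primed genes, which pluripotent cells turn on as they leave the naive state, were mixed. Of 13 measured, 9 were higher and 2 lower, with a median of 2.08 (4.13 at a pseudocount of 0.1). Dnmt3b had 48.2 FPKM in CiPSCs and 1.39 FPKM in MEFs, 34.7-fold higher (26.1 to 47.2), and Zic2 had 29.5 FPKM in CiPSCs and 1.6 FPKM in MEFs. The classical primed markers were low: Otx2 had 5.73 FPKM in CiPSCs and 0 FPKM in MEFs, and Fgf5 had 0.0348 FPKM in CiPSCs and 1.15 FPKM in MEFs. Sox11 was the other lower gene, at 1.53 FPKM in CiPSCs and 4.47 FPKM in MEFs.

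Genes of the 2-cell embryo, which flicker on in a small share of mouse ESCs, were detected at low levels. Of 22 entries in the table, 12 reached 1 FPKM in either library, of which 11 were higher and none lower, with a median of 2.41 (5.45 at a pseudocount of 0.1, 1.32 without a minimum), or 2.11 with 0 reads at the floor. In MEFs 20 of the 22 had 0 reads. For such genes reaching 1 FPKM in CiPSCs and being called higher are the same event, so the count of 11 adds nothing to the filter. Zscan4f had 19.4 FPKM in CiPSCs, 136 FPKM in ESCs and 0 FPKM in MEFs, and Zscan4c had 6.21 FPKM in CiPSCs, 26.7 FPKM in ESCs and 0 FPKM in MEFs. The Zscan4 genes are near-identical copies, so the level of each is uncertain. Of 31 germline genes, 29 were higher and none lower, with a median of 2.78 (5.30 at a pseudocount of 0.1, 4.54 at a minimum of 5 FPKM). This count is largely set by the filter too, as 18 of the 35 listed genes had 0 reads in MEFs. Rhox5, an X-linked homeobox gene of the reproductive tract, had 466 FPKM in CiPSCs, 80.0 FPKM in ESCs and 1.03 FPKM in MEFs. Stra8, the gatekeeper of meiosis, had 204 FPKM in CiPSCs, 126 FPKM in ESCs and 0 FPKM in MEFs (at least 823-fold over MEFs). Tex19.1, a germline and placental gene that restrains retrotransposons, had 152 FPKM in CiPSCs and 0 FPKM in MEFs. Rpl10l, the autosomal copy of the ribosomal protein gene Rpl10, had 162 FPKM in CiPSCs and 0 FPKM in MEFs, subject to shared reads with its parent. The late germ cell genes Ddx4 and Sycp3 were low, at 4.52 FPKM and 7.26 FPKM in CiPSCs against 1.67 FPKM and 0.0949 FPKM in MEFs.

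Of 18 measured genes of the DNA methylation machinery, 8 were higher and 5 lower, the lower share being near that of all genes, with a median of 0.74 (0.42 at equal FPKM totals). Dnmt3l, the catalytically inactive cofactor of the de novo enzymes, had 211 FPKM in CiPSCs and 2.04 FPKM in MEFs, 103-fold higher (69.2 to 161). Tet1, which oxidises 5-methylcytosine, had 25.3 FPKM in CiPSCs and 2.45 FPKM in MEFs, 10.3-fold higher (8.62 to 12.4), whereas its paralog Tet3 had 1.72 FPKM in CiPSCs and 16.0 FPKM in MEFs. Uhrf1, which brings Dnmt1 to newly copied DNA, had 369 FPKM in CiPSCs and 51.7 FPKM in MEFs, while Uhrf2 had 23.2 FPKM in CiPSCs and 57.8 FPKM in MEFs. Dnmt1 itself had 69.5 FPKM in CiPSCs and 39.5 FPKM in MEFs, less than 2-fold apart. Trim28, the corepressor that silences retroelements, had 1574 FPKM in CiPSCs and 378 FPKM in MEFs, 4.17-fold higher (4.02 to 4.32).

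Polycomb and histone methylation genes were more often higher than lower, 17 against 3 of 36, with a median of 0.78 (0.51 at equal FPKM totals). Polycomb repressive complexes place repressive marks on histones at silent developmental genes. Within complex 1 the chromobox subunits were exchanged: Cbx7, the chromobox protein of ESCs, had 79.4 FPKM in CiPSCs and 1.67 FPKM in MEFs, 47.6-fold higher (32.8 to 71.9), while Cbx6 had 26.6 FPKM in CiPSCs and 105 FPKM in MEFs. Bmi1 (Pcgf4) was also lower, at 8.55 FPKM in CiPSCs and 39.5 FPKM in MEFs. Complex 2 was higher in its core and its accessory subunits. Eed had 152 FPKM in CiPSCs and 25.3 FPKM in MEFs, and the accessory subunit Mtf2 had 111 FPKM in CiPSCs and 11.0 FPKM in MEFs. Jarid2, which helps target the complex, had 96.8 FPKM in CiPSCs and 10.4 FPKM in MEFs.

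Chromatin remodellers and histone deacetylases had small list medians, with larger differences in single genes. Of 30 BAF, NuRD and CAF-1 genes, 10 were higher and 6 lower, with a median of 0.30 that became -0.01 at equal FPKM totals. The BAF ATPase Smarca2 (Brm) had 3.01 FPKM in CiPSCs and 43.8 FPKM in MEFs, 14.6-fold lower (11.3 to 19), while the alternative ATPase Smarca4 (Brg1) had 47.3 FPKM in CiPSCs and 42.1 FPKM in MEFs. Smarcd3 had 2.35 FPKM in CiPSCs and 22.7 FPKM in MEFs, while its paralog Smarcd1 had 43.3 FPKM in CiPSCs, 1.61 higher on the log2(FPKM + 1) scale than in MEFs. The NuRD ATPase Chd3 had 11.2 FPKM in CiPSCs and 203 FPKM in MEFs, while Chd4 had 159.5 FPKM in CiPSCs and 133 FPKM in MEFs. Smarca2, Smarcd3 and Chd3 were thus lower in CiPSCs while their paralogs were not. Chaf1b, a subunit of the histone chaperone CAF-1, had 143 FPKM in CiPSCs and 24.1 FPKM in MEFs. Among 13 deacetylases, 4 were higher and 2 lower, with a median of -0.49 (-0.80 at equal FPKM totals). Hdac1 had 781 FPKM in CiPSCs and 160.4 FPKM in MEFs, and the class IIa enzyme Hdac7 had 1.48 FPKM in CiPSCs and 47.6 FPKM in MEFs. Of 14 histone variant and linker genes, 8 were higher and 3 lower, with a median of 1.18 (0.72 at equal FPKM totals). The variant H2afz had 1694 FPKM in CiPSCs and 399 FPKM in MEFs, whereas the linker histone H1f0, typical of differentiated cells, had 33.7 FPKM in CiPSCs and 154 FPKM in MEFs.

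Cell cycle and replication genes were higher in CiPSCs as a group: 31 of 34 were at least 2-fold higher and none was lower, with a median of 2.02. Ccne1, the cyclin that drives entry into S phase, had 306 FPKM in CiPSCs and 29.2 FPKM in MEFs, 10.5-fold higher (9.18 to 12.0). Cdt1 and Mcm5, which license replication origins, had 120.5 FPKM and 243 FPKM in CiPSCs against 15.3 FPKM and 31.2 FPKM in MEFs. Mki67, Foxm1 and Ccne2 were the 3 genes not called. Mki67, the proliferation antigen, had 10.00 FPKM in CiPSCs and 17.6 FPKM in MEFs.

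The regulators of the G1 phase went the other way in part, with 4 of 16 higher, 7 lower and a median of -0.60 (-0.92 at equal FPKM totals). The D cyclins were exchanged. Ccnd2 had 0.0305 FPKM, 2 reads, in CiPSCs and 62.3 FPKM in MEFs, Ccnd1 had 16.9 FPKM in CiPSCs and 48.1 FPKM in MEFs, and Ccnd3 had 318 FPKM in CiPSCs and 90.6 FPKM in MEFs. The inhibitors were mostly lower: Cdkn1c (p57) had 1.23 FPKM in CiPSCs and 105 FPKM in MEFs, 85.6-fold lower (58.6 to 130.2), and Cdkn2b (p15) had 2.25 FPKM in CiPSCs and 36.7 FPKM in MEFs. Cdkn1a (p21), a barrier to reprogramming, had 132 FPKM in CiPSCs, 161 FPKM in ESCs and 180.0 FPKM in MEFs, less than 2-fold apart. Cdkn2a, the locus of p16 and p19Arf that is silent in many stem cell lines, was higher at 32.1 FPKM in CiPSCs, 10.5 FPKM in ESCs and 12.4 FPKM in MEFs, 2.58-fold over MEFs (2.07 to 3.25). Of 21 genes of the Trp53 pathway, 5 were higher and 3 lower, with a median of 0.06 that became -0.26 at equal FPKM totals. Plk2 had 8.23 FPKM in CiPSCs and 114 FPKM in MEFs, and the death receptor Fas had 0 FPKM in CiPSCs and 7.72 FPKM in MEFs, while Bax had 569 FPKM in CiPSCs and 215 FPKM in MEFs.

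Telomere genes were higher in 10 of 15 cases and lower in none, with a median of 1.2, but the telomerase catalytic subunit was not among them. Tert had 2.82 FPKM in CiPSCs and 1.91 FPKM in MEFs, a ratio of 1.47 (1.07 to 2.04). The subunits that stabilise the telomerase RNA were the most different: Nop10 had 178 FPKM in CiPSCs and 26.1 FPKM in MEFs, Nhp2 had 493 FPKM in CiPSCs and 76.9 FPKM in MEFs, and Dkc1 had 236 FPKM in CiPSCs and 45.2 FPKM in MEFs. They also serve ribosome synthesis. The 12 genes of the Myc and Max network had a median of -0.14 (-0.45 at equal FPKM totals, 0.27 at a minimum of 5 FPKM), with 3 higher and 2 lower. The Myc genes were exchanged, with Myc at 3.00 FPKM in CiPSCs, 1.89 FPKM in ESCs and 54.9 FPKM in MEFs, 18.3-fold lower (14.1 to 24.2). Mycn had 33.6 FPKM in CiPSCs and 1.46 FPKM in MEFs, 23-fold higher (15.8 to 34.8). Of 22 RNA-binding proteins, 10 were higher and 4 lower, with a median of 0.53 (0.22 at equal FPKM totals, 0.20 at a minimum of 5 FPKM). Lin28a, which blocks let-7 maturation, had 120.4 FPKM in CiPSCs and 0 FPKM in MEFs. The splicing factors Mbnl1 and Mbnl2, which favour differentiated-cell exons, had 1.06 FPKM and 2.21 FPKM in CiPSCs against 21.8 FPKM and 49.7 FPKM in MEFs.

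Epithelial identity genes were higher in 20 of 26 measured cases and lower in none, with a median of 2.59 (4.23 at a pseudocount of 0.1). Cdh1 (E-cadherin), the adhesion protein of epithelial and pluripotent colonies, had 125 FPKM in CiPSCs and 0.583 FPKM in MEFs, 215-fold higher (132 to 376). Epcam had 52.8 FPKM in CiPSCs and 0.201 FPKM in MEFs, and Spint2, an inhibitor of membrane serine proteases, had 149 FPKM in CiPSCs and 2.46 FPKM in MEFs. Keratins did not follow. Krt8, Krt18 and Krt19 had 7.37, 7.64 and 4.78 FPKM in CiPSCs against 5.10, 4.02 and 6.56 FPKM in MEFs, each less than 2-fold apart.

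The mesenchymal transcription factors were the mirror image: 28 of 29 were at least 2-fold lower in CiPSCs and none was higher, with a median of -3.58. Prrx1, a homeobox factor of limb and body-wall mesenchyme, had 0.0215 FPKM, 1 read, in CiPSCs and 139.9 FPKM in MEFs. Twist1 had 1.88 FPKM in CiPSCs and 103 FPKM in MEFs, 54.6-fold lower (39.1 to 78.7). Snai1 and Snai2, which repress Cdh1, had 0.912 FPKM and 0.30 FPKM in CiPSCs against 88.8 FPKM and 24.2 FPKM in MEFs. Nfix had 1.67 FPKM in CiPSCs and 174 FPKM in MEFs. Zeb1 kept more of its level, at 9.54 FPKM in CiPSCs and 33.5 FPKM in MEFs, while its paralog Zeb2 had 0.0739 FPKM in CiPSCs and 36.6 FPKM in MEFs.

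**Figure D3:**
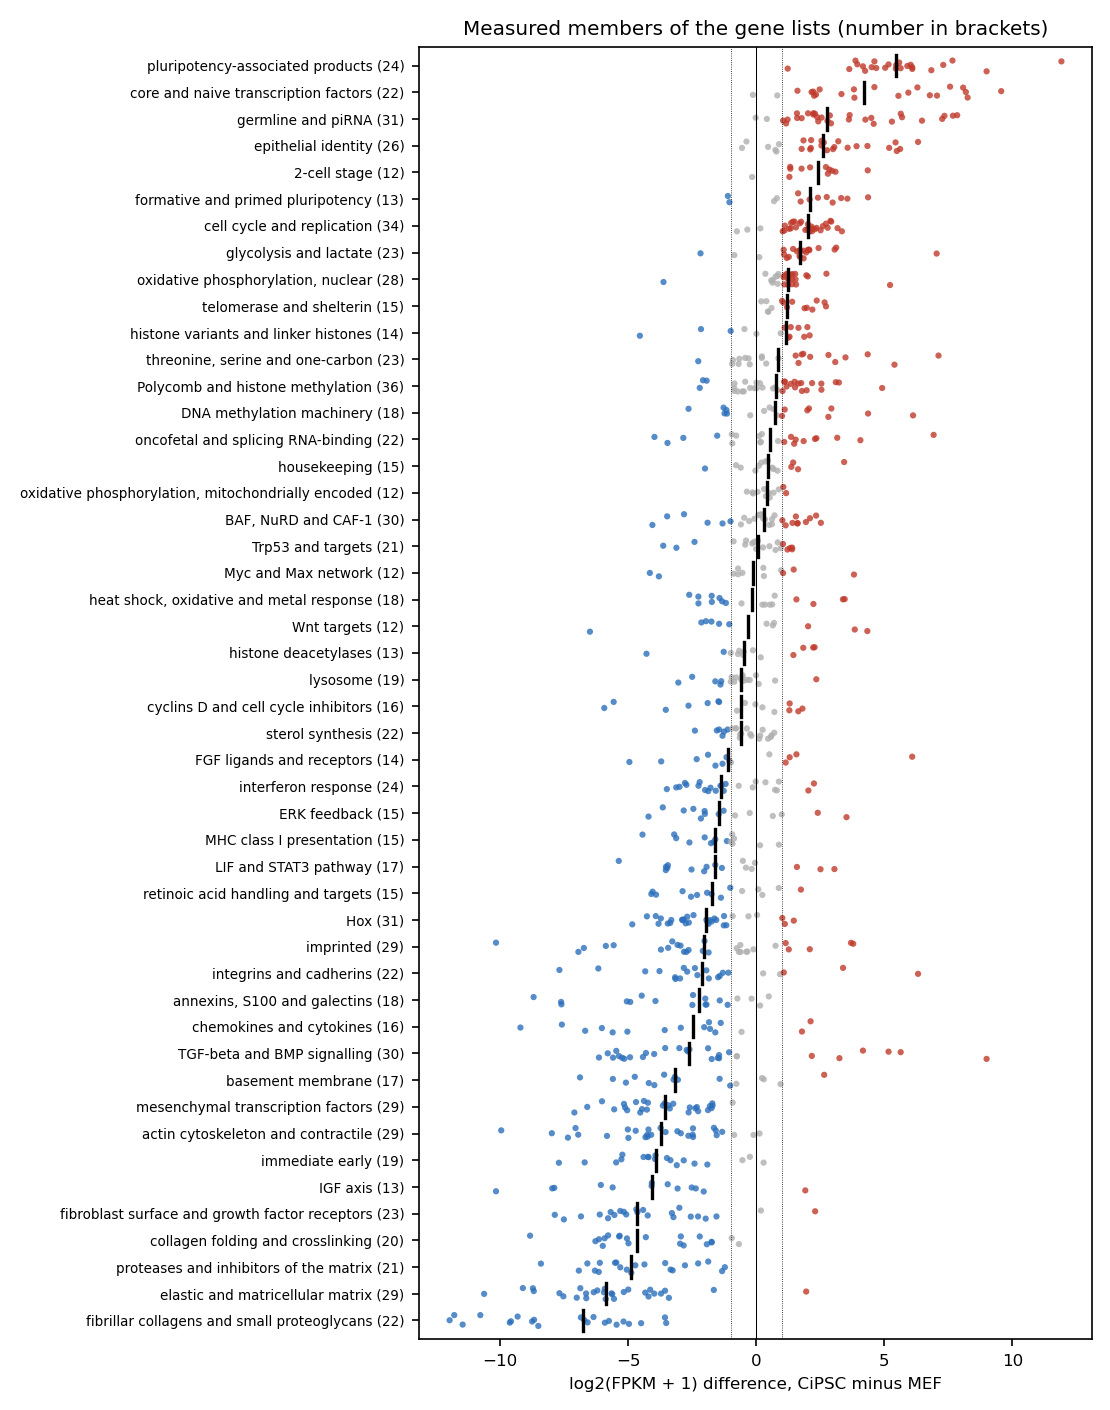
Log2(FPKM + 1) difference, CiPSC minus MEF (x axis), of each measured member of the 48 gene lists, ordered by list median (black bars), with the number of members in brackets. Red points are at least 2-fold higher in CiPSCs, blue points at least 2-fold lower, grey points between, and dotted lines mark 2-fold. Pluripotency products lie at the top with a median of 5.46, and fibrillar collagens and small proteoglycans at the bottom with a median of -6.79.

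Matrix genes made up the deepest falls. All 22 fibrillar collagens and small proteoglycans were lower by more than 4-fold, with a median log2 difference of -6.79, or -6.69 with 0 reads at the floor. Together they took 0.00324% of reads in CiPSCs and 5.74% in MEFs. Col1a1, the main chain of type I collagen, had 1.56 FPKM in CiPSCs and 9144 FPKM in MEFs, 5850.2-fold lower (4144 to 8553). Its partner chain Col1a2 had 0.388 FPKM in CiPSCs and 5609.9 FPKM in MEFs. Col3a1 had 0.144 FPKM, 3 reads, in CiPSCs and 3251 FPKM in MEFs, a ratio of 22520.2 (7706 to 109206). The proteoglycan Bgn had 0.417 FPKM in CiPSCs and 2493 FPKM in MEFs. Dcn, Lum, Fmod and Aspn, small proteoglycans that coat collagen fibrils, had 0 reads in CiPSCs.

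Of 29 elastic and matricellular genes, 28 were lower and 1 higher, with a median of -5.89. Thbs1 (thrombospondin) had 0.481 FPKM in CiPSCs and 2352 FPKM in MEFs, 4888-fold lower (3093 to 8249), and Postn (periostin) had 0.240 FPKM in CiPSCs and 512 FPKM in MEFs. Sparc, a collagen-binding protein that embryonic endoderm also makes, remained at 228 FPKM in CiPSCs, 251 FPKM in ESCs and 4632 FPKM in MEFs, 20.3-fold lower than in MEFs (19.6 to 21.1). Fn1 (fibronectin) likewise had 135 FPKM in CiPSCs and 1612 FPKM in MEFs. Spp1 (osteopontin) was the exception at 354 FPKM in CiPSCs and 91.1 FPKM in MEFs. In the basement membrane, 12 of 17 genes were lower and 1 was higher, with a median of -3.18. Col4a1 and Col4a2 had 11.1 FPKM and 7.41 FPKM in CiPSCs against 326 FPKM and 408 FPKM in MEFs. The laminin alpha chains were exchanged: Lama4 had 0.0330 FPKM, 1 read, in CiPSCs and 121 FPKM in MEFs, and Lama5 had 48.4 FPKM in CiPSCs and 6.87 FPKM in MEFs.

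The enzymes that fold, crosslink and cut the matrix were lower with it. Of 20 collagen folding and crosslinking genes, 18 were lower and none higher, with a median of -4.66. Lox (lysyl oxidase) had 0.108 FPKM in CiPSCs and 506 FPKM in MEFs, and the collagen chaperone Serpinh1 had 38.5 FPKM in CiPSCs and 1312 FPKM in MEFs, 34.1-fold lower (32.0 to 36.3). All 21 measured proteases and inhibitors were lower, with a median of -4.89. Serpinf1 had 2.84 FPKM in CiPSCs and 1309 FPKM in MEFs, Timp3 had 0.573 FPKM in CiPSCs and 191 FPKM in MEFs, and Ctsk, the collagen-degrading cathepsin, had 0 FPKM in CiPSCs and 96.1 FPKM in MEFs (at least 546-fold lower).

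The contractile cytoskeleton was lower in 26 of 29 genes and higher in none, with a median of -3.74. Acta2 (smooth muscle actin) had 1.61 FPKM in CiPSCs and 2611 FPKM in MEFs, 1619.6-fold lower (1153 to 2353). Tagln had 4.72 FPKM in CiPSCs and 1452 FPKM in MEFs, and Myl9 had 5.89 FPKM in CiPSCs and 1132 FPKM in MEFs. Srf, whose promoter is shown beside that of Myl9, was itself lower at 19.5 FPKM in CiPSCs and 60.4 FPKM in MEFs. Vim, the intermediate filament of mesenchyme, was less completely lost at 180.3 FPKM in CiPSCs and 3363 FPKM in MEFs, 18.6-fold lower (17.8 to 19.5). Among 18 annexin, S100 and galectin genes, 14 were lower and none higher, with a median of -2.23. S100a4, a fibroblast marker, had 0.196 FPKM, 1 read, in CiPSCs and 497 FPKM in MEFs, and Lgals1 had 94.7 FPKM in CiPSCs and 3189 FPKM in MEFs.

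At the cell surface 21 of 23 fibroblast genes were lower and 1 was higher, with a median of -4.65. Thy1 had 0.852 FPKM in CiPSCs and 433 FPKM in MEFs, 508-fold lower (317 to 873). Pdgfra, the PDGF receptor of mesenchyme, had 0.159 FPKM in CiPSCs and 63.3 FPKM in MEFs, and Cd44, the hyaluronan receptor, had 0.0311 FPKM, 1 read, in CiPSCs and 70.6 FPKM in MEFs. Icam1 was the exception at 45.3 FPKM in CiPSCs and 8.42 FPKM in MEFs, and Eng was nearly equal at 21.3 FPKM in CiPSCs and 18.7 FPKM in MEFs. Of 22 integrins and cadherins, 17 were lower and 3 higher, with a median of -2.13 (-3.23 at a pseudocount of 0.1). Cdh11 and Cdh2, the mesenchymal cadherins, had 0.0206 FPKM and 0.392 FPKM in CiPSCs against 210.1 FPKM and 27.2 FPKM in MEFs, opposite to Cdh1.

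The CiPSC medium held LIF and a MEK inhibitor, and the genes of both pathways are described next. The part of these agents in the values was not tested. The LIF and STAT3 list was lower in 10 of 17 genes and higher in 3, with a median of -1.6. Its lower genes include ligands and receptors other than those of LIF, namely Osmr, Clcf1, Il6, Il11 and Il11ra1. The receptor subunit Il6st (gp130), which LIF signals through, had 17.8 FPKM in CiPSCs and 216 FPKM in MEFs, 12.1-fold lower (11.2 to 13.2). The kinase Jak1 had 42.9 FPKM in CiPSCs and 253 FPKM in MEFs, and Lifr had 4.41 FPKM in CiPSCs and 6.16 FPKM in MEFs. Stat3 itself had 49.6 FPKM in CiPSCs and 194 FPKM in MEFs. The 3 higher genes were Socs3, Pim1 and Pim3, which are known targets of STAT3. Socs3 had 159.5 FPKM in CiPSCs and 18.4 FPKM in MEFs, Pim1 had 72.9 FPKM in CiPSCs and 23.7 FPKM in MEFs, and Pim3 had 91.0 FPKM in CiPSCs and 15.2 FPKM in MEFs. Il6st, Jak1 and Stat3 were thus lower while Socs3, Pim1 and Pim3 were higher, and Lifr was less than 2-fold apart.

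The ERK feedback genes were lower in 9 of 15 cases and higher in 2, with a median of -1.47. Dusp6, an ERK phosphatase induced by ERK itself, had 3.55 FPKM in CiPSCs and 19.4 FPKM in MEFs, and Fosl1 had 0.306 FPKM in CiPSCs and 23.2 FPKM in MEFs. Etv5 and Etv4, ETS factors downstream of FGF signalling, were the higher genes, with 155 FPKM and 84.6 FPKM in CiPSCs against 12.5 FPKM and 15.2 FPKM in MEFs. Of 14 FGF ligands and receptors, 4 were higher and 8 lower, with a median of -1.11 (-1.79 at a pseudocount of 0.1, -1.97 at a minimum of 5 FPKM). The mesenchymal ligand Fgf7 had 0 FPKM in CiPSCs and 30.1 FPKM in MEFs, and the receptor Fgfr1 had 46.9 FPKM in CiPSCs and 144 FPKM in MEFs. Wnt target genes were split, 3 higher and 6 lower of 12, with a median of -0.33 (-1.01 at equal FPKM totals, -1.26 at a minimum of 5 FPKM, 0.11 without the 1 FPKM minimum). The part of the GSK3 inhibitor of the CiPSC medium in these values was not tested. Cdx1 had 19.2 FPKM in CiPSCs and 0 FPKM in MEFs, and Tcf7 had 28.7 FPKM in CiPSCs and 1.07 FPKM in MEFs. Lgr5 had 0 FPKM in CiPSCs and 89.5 FPKM in MEFs (at least 826-fold lower).

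TGF-beta and BMP genes were lower in 22 of 30 cases and higher in 6, with a median of -2.64. The 6 higher genes were Tdgf1, Nodal, Lefty1, Lefty2, Bmp7 and Acvr2b, of which the first 4 also stand in the pluripotency list. Tgfb3 had 0.180 FPKM in CiPSCs and 65.0 FPKM in MEFs, and Fstl1 had 39.5 FPKM in CiPSCs and 1964 FPKM in MEFs, 49.7-fold lower (45.4 to 54.4). The BMP targets Id1 and Id3 had 17.3 FPKM and 16.6 FPKM in CiPSCs against 146 FPKM and 349 FPKM in MEFs. In the IGF axis 12 of 13 genes were lower, with a median of -4.08 (-6.46 at a pseudocount of 0.1), led by the fetal growth factor Igf2 at 0.261 FPKM in CiPSCs and 1451 FPKM in MEFs. Igfbp2 was the exception, at 639 FPKM in CiPSCs, 675 FPKM in ESCs and 169 FPKM in MEFs, 3.78-fold over MEFs (3.59 to 3.98). Retinoic acid genes were lower in 10 of 15 cases and higher in 1, with a median of -1.75, while the receptor Rarg was equal at 87.8 FPKM in CiPSCs and 83.3 FPKM in MEFs.

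Pluripotent cells are known for rapid glycolysis. Of 23 glycolysis and lactate genes, 20 were higher and 1 lower, with a median of 1.71, and together they took 2.67% of reads in CiPSCs and 0.823% in MEFs. The glucose transporter Slc2a3 (Glut3) had 653 FPKM in CiPSCs and 3.96 FPKM in MEFs, 165-fold higher (129.6 to 213), whereas Slc2a1 (Glut1) had 345 FPKM in CiPSCs and 88.7 FPKM in MEFs. Gapdh, often taken as a constant gene, had 8294 FPKM in CiPSCs and 2324 FPKM in MEFs, 3.57-fold higher (3.51 to 3.63). Eno2 was the lower gene, at 6.41 FPKM in CiPSCs and 32.6 FPKM in MEFs. Respiration genes encoded in the nucleus were higher as well, in 19 of 28 cases with 1 lower and a median of 1.24. Cox7a1 had 152 FPKM in CiPSCs and 3.09 FPKM in MEFs, 49.1-fold higher (27.2 to 98.8), while its muscle-type partner Cox6a2 had 0 FPKM in CiPSCs and 11.3 FPKM in MEFs. Of 12 mitochondrially encoded genes, 2 were higher and none lower, with a median of 0.42, and together they took 1.76% of reads in CiPSCs and 1.25% in MEFs. The 2 higher genes were mt-Atp8 and mt-Co3, with 45 and 39 reads in CiPSCs against 16 and 12 in MEFs. Their intervals, 1.33 to 4.53 and 1.42 to 5.80, reached below 2-fold.

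Threonine catabolism, on which mouse ESCs depend, was among the clearest rises. Tdh, threonine dehydrogenase, had 138 FPKM in CiPSCs and 0 FPKM in MEFs (at least 436-fold), and Gldc and Amt of the glycine cleavage system had 31.6 FPKM and 113 FPKM in CiPSCs against 0.60 FPKM and 1.71 FPKM in MEFs. Over the 23 genes of threonine, serine and folate metabolism, 11 were higher and 1 lower, with a median of 0.86 (0.56 at equal FPKM totals). The serine synthesis genes were not part of the rise: Phgdh had 211 FPKM in CiPSCs and 407 FPKM in MEFs, and Psat1 had 219.5 FPKM in CiPSCs and 356 FPKM in MEFs. Sterol synthesis genes were lower in 6 of 22 cases and higher in none, with a median of -0.62 (-0.94 at equal FPKM totals), and Cyp51 had 44.1 FPKM in CiPSCs and 130.4 FPKM in MEFs.

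Immediate early genes, which respond within minutes to serum and handling, were lower in 16 of 19 cases and higher in none, with a median of -3.94. Egr1 had 0.116 FPKM in CiPSCs, 0.432 FPKM in ESCs and 233 FPKM in MEFs, 2015-fold lower than in MEFs (863 to 6208). Fos had 1.12 FPKM in CiPSCs and 80.8 FPKM in MEFs. Jund and Ier2 did not differ by 2-fold, with 54.8 FPKM and 103 FPKM in CiPSCs against 44.9 FPKM and 122 FPKM in MEFs. The serum content and MEK inhibitor of the media differ between the libraries, and their part in these values was not tested.

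Innate immune genes were also lower. Of 24 interferon response genes, 15 were lower and 2 higher, with a median of -1.38 (-2.56 at a pseudocount of 0.1). Isg15 had 0 FPKM in CiPSCs and 10.3 FPKM in MEFs, while Ifitm1 and Oas1a were the higher genes, with 73.5 FPKM and 8.86 FPKM in CiPSCs against 14.7 FPKM and 1.41 FPKM in MEFs. Of 15 genes of MHC class I presentation, 9 were lower and none higher, with a median of -1.6. B2m, the light chain common to class I molecules, had 15.3 FPKM in CiPSCs and 354 FPKM in MEFs, 23.2-fold lower (19.7 to 27.5). Chemokines and cytokines were lower in 13 of 16 cases and higher in 2, with a median of -2.49 (-4.88 at a pseudocount of 0.1, -5.04 at a minimum of 5 FPKM). Ccl2 had 0 FPKM in CiPSCs and 102 FPKM in MEFs, Csf1 had 0.219 FPKM in CiPSCs and 235 FPKM in MEFs, and Ptn had 0.0430 FPKM, 1 read, in CiPSCs and 619 FPKM in MEFs. Mif and Mdk were the higher genes, at 1294 FPKM and 697 FPKM in CiPSCs against 376 FPKM and 159.8 FPKM in MEFs.

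Of 31 measured Hox genes, 25 were lower and 3 higher, with a median of -1.95 (-4.07 at a pseudocount of 0.1, -3.11 at a minimum of 5 FPKM). Hoxc6 and Hoxc8, of the trunk region, had 0 reads in CiPSCs and 27.8 FPKM and 18.4 FPKM in MEFs. Hoxa10 had 0.206 FPKM in CiPSCs and 16.1 FPKM in MEFs. Hoxc13 and Hoxb13 were among the higher genes, though low in both libraries, with 3.32 FPKM and 2.01 FPKM in CiPSCs against 0.998 FPKM and 0.0927 FPKM in MEFs.

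Imprinted genes, which are transcribed from only the maternal or the paternal copy, were lower in 16 of 29 cases and higher in 5, with a median of -2.03. H19 had 21.7 FPKM in CiPSCs, 30.5 FPKM in ESCs and 2811 FPKM in MEFs, 129-fold lower than in MEFs (116 to 145). Meg3, the maternal transcript of the Dlk1-Dio3 region whose silencing has been linked to poor developmental potential of reprogrammed lines, had 44.7 FPKM in CiPSCs, 70.6 FPKM in ESCs and 323 FPKM in MEFs, 7.22-fold lower than in MEFs (6.83 to 7.65), and was thus detected in the line. Its paternal neighbour Dlk1 had 3.29 FPKM in CiPSCs and 456 FPKM in MEFs. Snrpn had 132 FPKM in CiPSCs and 8.67 FPKM in MEFs, and Phlda2 had 17.2 FPKM in CiPSCs and 0.405 FPKM in MEFs. Allelic origin was not measured. Xist, the RNA that coats the inactive X of female cells, had 0.153 FPKM in CiPSCs and 29.3 FPKM in MEFs, while the Y-linked Eif2s3y had 67.0 FPKM in CiPSCs and 37.6 FPKM in MEFs and Ddx3y had 10.3 FPKM in CiPSCs and 22.2 FPKM in MEFs. The MEF library held both Xist and Y-linked transcripts, and the part of sex in the differences on X was not tested.

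Stress genes were mixed, with 4 of 18 higher, 8 lower and a median of -0.17 (-0.49 at equal FPKM totals, 0.24 at a minimum of 5 FPKM). The metallothioneins Mt2 and Mt1 had 649 FPKM and 638 FPKM in CiPSCs against 58.5 FPKM and 135 FPKM in MEFs, and the small heat shock protein Hspb1 had 1234 FPKM in CiPSCs and 117 FPKM in MEFs, 10.5-fold higher (9.87 to 11.2). Ddit3, of the unfolded protein response, had 12.0 FPKM in CiPSCs and 61.4 FPKM in MEFs. Lysosomal genes were lower in 5 of 19 cases and higher in 1, with a median of -0.60 (-0.91 at equal FPKM totals), among them Lamp2 at 16.1 FPKM in CiPSCs and 140.3 FPKM in MEFs, and the regulator Tfeb was the higher gene at 51.3 FPKM in CiPSCs and 9.31 FPKM in MEFs. Of 15 housekeeping genes, 4 were higher and 1 lower, with a median of 0.45 (0.13 at equal FPKM totals). Tfrc, the transferrin receptor, was 11.2-fold higher (10.2 to 12.3), with 259 FPKM in CiPSCs and 23.2 FPKM in MEFs. Genes near equality at high abundance included Tpt1, with 2237 FPKM in CiPSCs and 2176 FPKM in MEFs, Cfl1, with 1164 FPKM in CiPSCs and 1244 FPKM in MEFs, and H3f3b, with 449 FPKM in CiPSCs and 448 FPKM in MEFs.

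The libraries between the ends show when these differences appeared. For genes at 10 FPKM or more in either end and at least 4-fold apart, the first library past the midpoint between the MEF and CiPSC log2 levels was noted. The end libraries choose these genes and set the midpoint, so the counts are a description. Of 1207 lower genes, 729 (60.4%) were past the midpoint already in the XEN-like library, and of 775 higher genes, 299 (38.6%) were. A further 224 higher genes (28.9%) first passed it at day 12 of stage II, and 130 (16.8%) at day 15 of stage III. The last step, between day 21 of stage III and the line, held 146 lower genes (12.1%) and 31 higher genes. Many early crossings were not kept: 315 of the 729 lower genes and 141 of the 299 higher genes lay back before the midpoint in a later library.

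Single genes illustrate these courses from MEF through XEN-like, stage II day 12, and stage III days 6, 15 and 21 to CiPSC. Pou5f1 had 0, 0, 149, 138, 216, 400.1 and 756 FPKM along that order. Nanog had 0.197, 0.626, 0.576, 8.96, 143, 265 and 364 FPKM, so it was near 0 in the stage II library that already held Pou5f1. Lin28a had 0, 226, 64.1, 53.9, 45.7, 22.8 and 120.4 FPKM, highest in the XEN-like library. Among the falls, Col1a1 had 9144, 18.3, 16.1, 232, 285, 136 and 1.56 FPKM, a return in stage III that was gone in the line. Cdh1 and Epcam passed their final levels: Cdh1 had 0.583, 17.7, 344, 272, 206, 212 and 125 FPKM. Krt19, less than 2-fold apart between the ends, had 6.56, 195, 113, 721, 408, 139 and 4.78 FPKM. In all, 1956 of the 13852 genes (14.1%) were at least 2-fold higher in a library between the ends than in both ends. The bulk libraries of the stages are mixtures of cells, so fewer cells of a type and less RNA per cell cannot be told apart.

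**Figure D4:**
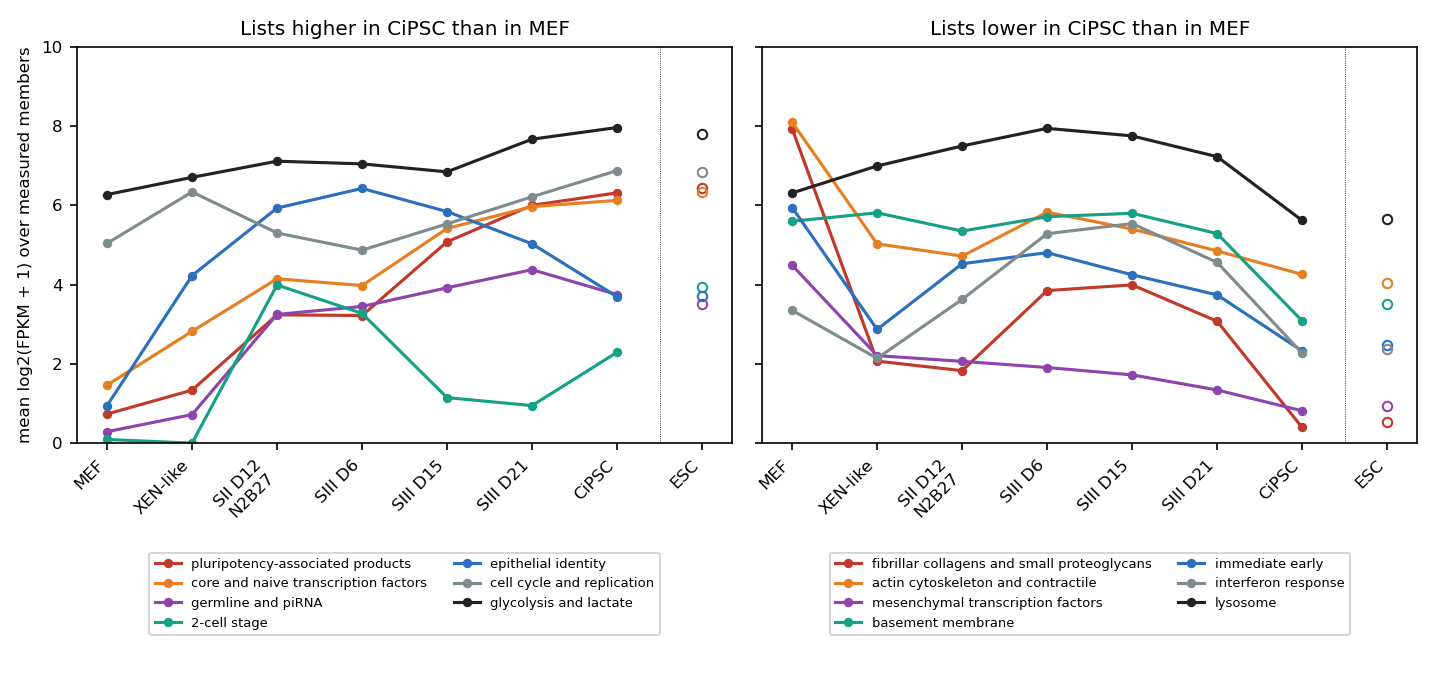
Mean log2(FPKM + 1) over measured members of 7 lists higher (left) and 7 lists lower (right) in CiPSCs than in MEFs. Libraries follow the process from MEF to CiPSC, with ESC as open circles beyond the dotted line, 1 library each. Epithelial genes reach 6.43 at stage III day 6 against 3.70 in CiPSCs, and the 2-cell genes reach 3.99 at stage II day 12. Fibrillar collagens fall to 2.07 in the XEN-like library, stand at 3.99 at stage III day 15 and end at 0.40 in CiPSCs.

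List means drew the same courses. The 2-cell genes averaged 0.09 in MEFs, 0.00 in XEN-like cells, 3.99 at stage II day 12, 0.95 at stage III day 21, 2.29 in CiPSCs and 3.94 in ESCs, on the log2(FPKM + 1) scale. The mesenchymal factors went down at every library, with means of 4.49, 2.21, 2.06, 1.91, 1.72, 1.34 and 0.82 from MEF to CiPSC. Basement membrane genes stayed between 5.29 and 5.81 in every library before the line and averaged 3.09 in CiPSCs. The interferon genes averaged 3.35 in MEFs, 5.54 at stage III day 15 and 2.27 in CiPSCs, and the lysosomal genes 6.32 in MEFs, 7.95 at stage III day 6 and 5.62 in CiPSCs.

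Promoter windows were available for 10007 of the 13852 genes. A CpG observed over expected ratio of 0.6 or more, the usual mark of a CpG island, was found in 72.1% of them. The share was 67.7% of the higher genes, 63.2% of the lower genes and 78.8% of the genes less than 2-fold apart. It was lower at larger differences on both sides: 37.8% of the 135 genes at least 16-fold higher and 44.9% of the 274 at least 16-fold lower. The median ratio was 0.94 for the cell cycle list, 0.38 for the fibrillar collagens and 0.18 for the 2-cell genes, against 0.76 over all members with a window. The hexamer TATAAA, searched on both strands, was present in 7.07% of the members' windows, 9.63% of those at least 16-fold higher and 16.1% of those at least 16-fold lower, and in 14.2% of all 27025 windows of the RefSeq table.

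**Figure D5:**
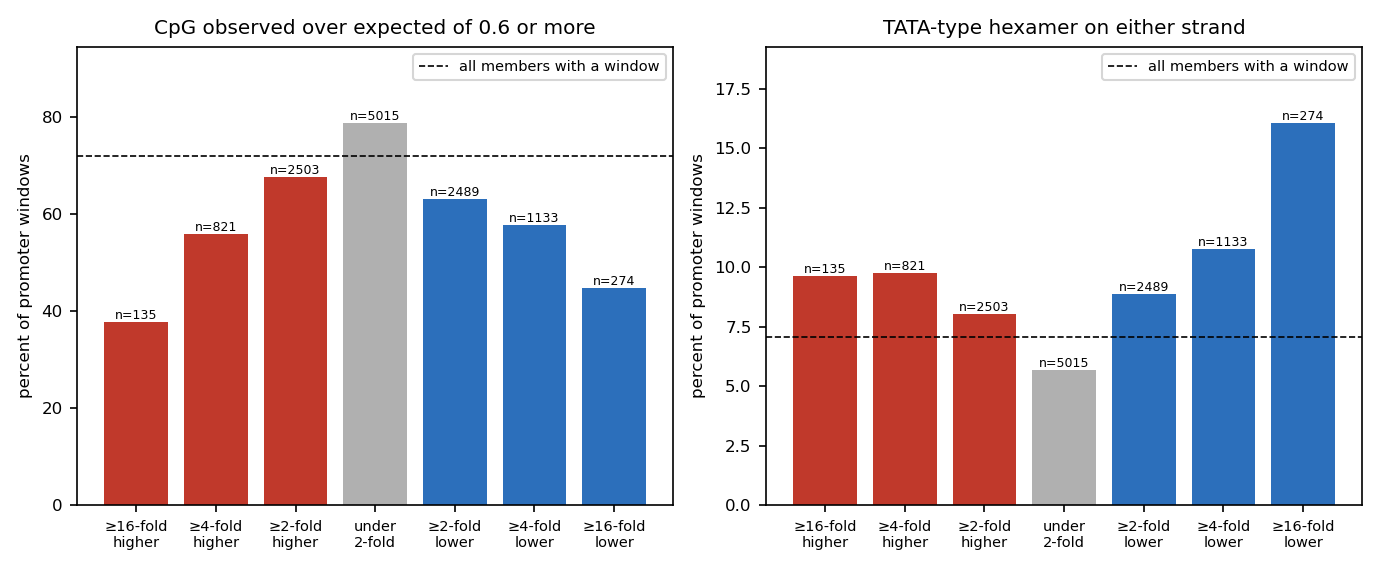
Percent of promoter windows (250 bases before to 50 after the start) with a CpG observed over expected ratio of 0.6 or more (left) and with a TATA-type hexamer on either strand (right), by size and direction of the CiPSC minus MEF difference. Red bars are genes higher in CiPSCs, blue bars genes lower, the grey bar genes under 2-fold apart, the dashed line all members with a window, and each larger fold class is contained in the smaller. CpG-rich windows are most frequent in the grey bar at 78.8%.

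The octamer ATGCAAAT, searched on both strands, was found in 1.44% of members' windows. It was in 7 of 135 windows (5.19%) of genes at least 16-fold higher, as in the Zfp42 window shown above, and in 11 of 274 (4.01%) of those at least 16-fold lower, as in the Col3a1 window, so it was not confined to either direction. TGACTCA, the AP-1 element, was in 3.49% of members' windows, 5.19% of those at least 16-fold higher and 6.93% of those at least 16-fold lower. In all windows of the RefSeq table the shares were 1.75% for ATGCAAAT and 5.17% for TGACTCA. CArG boxes were in 1.30% of members' windows and 1.57% of all windows. They were in 1 of 135 windows (0.741%) of genes at least 16-fold higher and 8 of 274 (2.92%) of those at least 16-fold lower. In the contractile list 4 of 24 windows (16.7%) held one, those of Cnn2, Myl9, Vcl and Srf. All 4 genes were lower in CiPSCs, as were 26 of the 29 genes of that list as a whole. Cnn2 had 31.1 FPKM in CiPSCs and 616 FPKM in MEFs, and Vcl had 7.27 FPKM in CiPSCs and 69.2 FPKM in MEFs.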

How the data were processed

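Bulk RNA-seq was deposited by the authors as 1 table of FPKM values per gene and library. Direct-zol was used for total RNA and the NEBNext Ultra RNA kit for library construction, per the labels' protocols. The submitters' processing notes name mm10, FastQC, Cell Ranger 2.0.1, Bismark and Bowtie2 for the series without assigning them to this table. For the FPKM table the aligner, counter, annotation and strand setting were not given in the sources used here, so antisense and overlapping genes, and near-identical copies, were not resolved.

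Columns were matched to samples by title, and 0 columns were left unmapped. FPKM values were compared as log2(FPKM + 1), with a call at 1 or more on that log2 scale (2-fold) among entries at 1 FPKM or more in either of the libraries deposited by the authors. Whole reads were recovered from the steps of the FPKM values for 23178 entries: 99.7% of 23178 implied lengths were whole within 0.001 base. Recovered reads gave the library totals, the counting intervals, the floor of 3 reads, the quoted read numbers and the shares of reads. The log2(FPKM + 1) differences and their 2-fold calls did not use them. Of the 13852 genes, 4 had no recovered reads. Some 27 entries carried date-like names and were not matched to a symbol. With 1 library per group, no test was run. The recovery and the calls were also run on simulated reads that carried counting error only. Such a run cannot check calls for differences between cultures or library preparations. Python 3.11.15, numpy 2.4.6, pandas 2.3.3 and scipy 1.17.1 were used.

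The genes, the 48 lists and the marker lists were chosen with earlier results of these data known. Genes were named where they were 1 of 33 key genes, among the 4 most different members of a list, the most nearly equal or most abundant member of a list, among the 20 largest rises or falls, or among 10 abundant genes closest to equal. Others, such as paralogs, the exceptions of a list and the genes quoted for contrast, were named after their values were seen. List members under 1 FPKM in both libraries were left out, and the values of a few genes are not reported here. Promoter windows and symbols came from RefSeq (GRCm38.p6), which matched 13492 of the genes by symbol. Alternatives were a pseudocount of 0.1, a minimum of 5 FPKM, no minimum, median-of-ratios scaling, TPM without mitochondrially encoded genes, a 4-fold call, and a counting interval wholly past 2-fold.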

Additional observations from a re-analysis of the deposited data

How the results depend on the processing

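The counts of genes at least 2-fold higher and lower in CiPSCs (3574 and 3510) stayed within 1.5 times of these values under a pseudocount of 0.1 (3982 and 3983), a minimum of 5 FPKM (2664 and 2722), median-of-ratios scaling (3683 and 3423), TPM without mitochondrially encoded genes (3018 and 4696) and an interval wholly past 2-fold (3089 and 3266). A 4-fold call by construction left fewer, 1148 and 1610. Without a minimum they were 3574 and 3510, which was also fixed by construction. An entry under 1 FPKM in both libraries cannot reach 2-fold on the log2(FPKM + 1) scale. Higher genes made up 50.5% of calls, or 39.1% with TPM. Of the 289 named genes, 134 moved with TPM, 9 with median-of-ratios scaling and 124 with the smaller pseudocount, and of the list medians 18 of 48 moved with that pseudocount, 9 of 48 at a minimum of 5 FPKM, 3 of 48 without a minimum, 4 of 47 with TPM and 0 of 48 with median-of-ratios scaling. With TPM the medians of nuclear respiration (1.24) and telomere genes (1.2) fell under 2-fold, at 0.92 each. That of histone variants and linker histones (1.18) also fell under it, at 0.72 with TPM and 0.95 without a minimum. The Wnt target median (-0.33) passed 2-fold with TPM, at -1.01, and at a minimum of 5 FPKM, at -1.26. Without a minimum it was 0.11. No gene or list median called past 2-fold changed sign under these settings. No paired analysis was possible because each group held 1 library. Depth limits genes with few reads at a floor of 3 reads per library.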

Other observations

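Marker lists of other cell types were mostly low in both libraries. Extraembryonic endoderm markers summed to 10.8 FPKM in CiPSCs and 119 FPKM in MEFs, of which Pdgfra and Dab2, which fibroblasts also express, gave 63.3 and 48.6 FPKM in MEFs. Trophoblast markers summed to 83.5 FPKM in CiPSCs, 84.9 FPKM in ESCs and 7.06 FPKM in MEFs. Of these, Tfap2c alone had 75.1 FPKM in CiPSCs and 0 FPKM in MEFs. Neural markers summed to 196 FPKM in CiPSCs, 128 FPKM in ESCs and 55.0 FPKM in MEFs. Among them Stmn2 had 141 FPKM in CiPSCs and 2.69 FPKM in MEFs. Bone markers summed to 396 FPKM in CiPSCs and 36.1 FPKM in MEFs, nearly all of it the alkaline phosphatase Alpl, which is also a stem cell marker, at 387 FPKM in CiPSCs and 10.9 FPKM in MEFs. Endothelial markers summed to 31.1 FPKM in CiPSCs and 33.2 FPKM in MEFs, immune markers to 15.7 FPKM in CiPSCs and 18.2 FPKM in MEFs, and skeletal muscle markers to 13.3 FPKM in CiPSCs and 40.9 FPKM in MEFs.

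By gene class, 3222 of 12828 protein-coding genes (25.1%) were higher and 3290 (25.6%) lower. Of 236 pseudogenes, 104 (44.1%) were higher and 22 (9.32%) lower. The part of reads shared with parent genes in these counts was not tested. Of 358 long non-coding RNAs, 108 (30.2%) were higher and 95 (26.5%) lower.

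Chromosomes differed in their split. On chromosome 8, 31.1% of genes were higher and 19.2% lower, and on chromosome 17 the shares were 30.1% higher and 19.6% lower. On chromosome 3 they were 17.7% higher and 33.9% lower, and on chromosome 1 they were 20.1% higher and 34.0% lower. On X they were 26.5% higher and 31.9% lower. Karyotype was not measured in these files.

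Among mitochondrially encoded genes, mt-Co2, mt-Co3 and mt-Atp6 were listed at 5.60, 4.33 and 6.52 FPKM in CiPSCs against 3.14, 1.57 and 4.81 FPKM in MEFs, beside mt-Co1 at 5742 FPKM in CiPSCs and 3129 FPKM in MEFs.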
